A study of Mus musculus with 35 samples.

Results

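The genes described here are 34 type I interferon-stimulated genes, which are genes that cells switch on when they sense type I interferon. They were taken by name, for their known place in that response and without any threshold on their values, from the 21203 genes measured by RNA-seq in 34 mice, 1 library per mouse. All 34 were found in the table and all passed the filter on low counts. The mice were male C57BL/6NCrl mice aged 8 to 9 weeks when procedures began. Sham mice (n = 5) went through the procedure without the impact and had no injection. The other mice had a closed head injury, a blow to the intact skull, and 5 days later an injection into the left hippocampus of PBS, of mesenchymal stromal cells (MSCs) bought and derived from C57BL/6N mice, or of IL-4 MSCs, the same cells transiently transfected with synthetic IL-4 mRNA. Tissue was taken at 1 week post-injury (wpi), 2 days after treatment (n = 5 each for PBS, MSCs and IL-4 MSCs), or at 3 wpi, 16 days after treatment (n = 5 for MSCs and IL-4 MSCs, and n = 4 for PBS, where the authors excluded a mouse). Of the sham mice, 2 were collected at week 1 and 3 at week 3, and they were kept as 1 group, as the authors did.

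The groups limit what each comparison isolates. PBS mice differed from sham mice by the injury and by the injection, whose parts cannot be told apart. IL-4 MSCs differed from MSCs by the IL-4 message and by the transfection itself, and no library of MSCs transfected with another mRNA was analysed here, so those parts cannot be told apart either. The labels give all mice of a treated group 1 common number of unstated meaning, and whatever it marks cannot be told apart from the group. In bulk tissue, fewer cells of a type and less RNA per cell cannot be told apart.

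Type I interferons are a family of secreted proteins, many forms of IFN-α and a single IFN-β among them, that bind the receptor chains IFNAR1 and IFNAR2 on almost every cell. The receptor's kinases JAK1 and TYK2 activate STAT proteins, among them STAT2, which joins IRF9 in a complex called ISGF3. ISGF3 binds the interferon-stimulated response element (ISRE) in the promoters of its target genes, whose products sense foreign nucleic acid, block viral replication or tune the pathway itself. In the brain microglia, astrocytes, endothelial cells and neurons can all respond, and IFN-γ and type III interferons drive part of the same genes.

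Levels are given as CPM, counts scaled to a common library total, and fold changes are log2 differences between groups ± SE from edgeR's quasi-likelihood test. A gene was called where its adjusted p was under 0.05 over the 17131 genes tested. The libraries held between 29838423 and 41554322 estimated counts, so that 3 counts, taken as the lowest detectable level, corresponded to between 0.0722 and 0.101 CPM. The labels name the tissue left cortex whereas the methods describe the region of the injection. Summed over 9 cortex markers the libraries held between 683 and 1108 CPM, and over 8 hippocampus markers between 192.6 and 350.4 CPM. Summed over 13 markers of the striatum, a region beside both, they held between 503 and 2833 CPM in IL-4 MSC mice at 3 wpi, against 327 to 1026 CPM in Sham, so the libraries differed in the regional markers they held. The sham mice differed by week in these markers, whose mean log2 CPM was 3.27 and 3.15 in the mice of week 1. In those of week 3 it was 5.09, 5.23 and 5.36.

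The ISRE is the site through which ISGF3 acts, so the promoters of these genes are shown first. Promoters from 250 bases before to 50 bases after the start site (RefSeq, GRCm38.p6) were at hand for 24 of the 34 genes. They were searched on both strands for the ISRE core, GAAANNGAAA or its reverse complement TTTCNNTTTC. A match was found in 11 of the 24 (45.8%), against 1079 of all 27025 genes with a promoter (3.99%). The core of the GAS element, TTCNNNGAA, an element of the response to IFN-γ, was found in 4 of the 24 (16.7%) against 9.55% of all genes, and it overlapped an ISRE core in 1 gene. In 9 of the 11 a match lay wholly before the start site. Those stretches are printed 5′ to 3′ on the gene's own strand with the matched bases in capitals, which run together where matches overlap, as the 3 in Isg15 do.
Stat2 (chr10:128270256-128270305, plus strand): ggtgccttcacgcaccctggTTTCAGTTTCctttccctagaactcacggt
Ifit1 (chr19:34640765-34640833, plus strand): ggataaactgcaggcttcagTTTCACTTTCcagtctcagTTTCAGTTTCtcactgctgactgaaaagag
Ifit3 (chr19:34583353-34583436, plus strand): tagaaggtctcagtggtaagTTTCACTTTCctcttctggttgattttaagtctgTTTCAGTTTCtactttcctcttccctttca
Ifit3b (chr19:34607749-34607832, plus strand): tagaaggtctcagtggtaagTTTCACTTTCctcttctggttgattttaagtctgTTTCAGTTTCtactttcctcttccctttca
Oas1a (chr5:120907526-120907565, minus strand): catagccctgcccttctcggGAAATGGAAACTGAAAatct
Isg15 (chr4:156200855-156200916, minus strand): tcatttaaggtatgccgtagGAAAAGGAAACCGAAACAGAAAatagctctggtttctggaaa
Rsad2 (chr12:26456543-26456592, minus strand): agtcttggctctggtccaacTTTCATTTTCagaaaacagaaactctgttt
Bst2 (chr8:71537567-71537622, minus strand): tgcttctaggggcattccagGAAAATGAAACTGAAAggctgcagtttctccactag
Trim30a (chr7:104465200-104465249, minus strand): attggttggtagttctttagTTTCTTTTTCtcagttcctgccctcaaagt

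The Ifit3 and Ifit3b stretches differed at 0 of their 84 bases, although the genes are separate neighbours on chromosome 19 (chr19:34583531-34588731 and chr19:34607970-34613401). In Ddx58 and Ifih1 the match lay after the start site. The 13 genes searched without a match were Irf9, Irf7, Ifit2, Oasl1, Oasl2, Herc6, Trim25, Cmpk2, Samd9l, Dtx3l, Ifi44, Ifi35 and Xaf1. A match is a string of letters and not a measured binding site, and the absence of one says only that the letters are not in this window. Promoters of Dhx58, Zbp1, Oas2, Usp18, Mx1, Mx2, Parp9, Parp14, Ifi27l2a and Rtp4 were not analysed here.

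The genes differed widely in their resting level. On the length-scaled TPM scale, which allows genes to be compared, the highest in Sham were Xaf1 with 17.5 ± 0.931 TPM (SD, n = 5), Cmpk2 with 16.1 ± 0.685 TPM and Stat2 with 12.4 ± 0.810 TPM. The lowest were Mx1 with 0.292 ± 0.0865 TPM, Zbp1 with 0.249 ± 0.177 TPM and Oasl1 with 0.149 ± 0.0463 TPM, of which Mx1 and Zbp1 lay within each other's spread. In IL-4 MSC mice at 1 wpi the order was another one. Ifi27l2a led with 104 ± 28.1 TPM, followed by Bst2 with 93.4 ± 17.1 TPM, Xaf1 with 55.5 ± 6.57 TPM, Irf7 with 50.3 ± 9.25 TPM and Ifit3 with 50.2 ± 21.9 TPM, where Ifi27l2a and Bst2 lay within each other's spread, as did Xaf1, Irf7 and Ifit3. Cmpk2 stood at 19.4 ± 1.45 TPM, 11th of the 34.

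**Figure D1:**
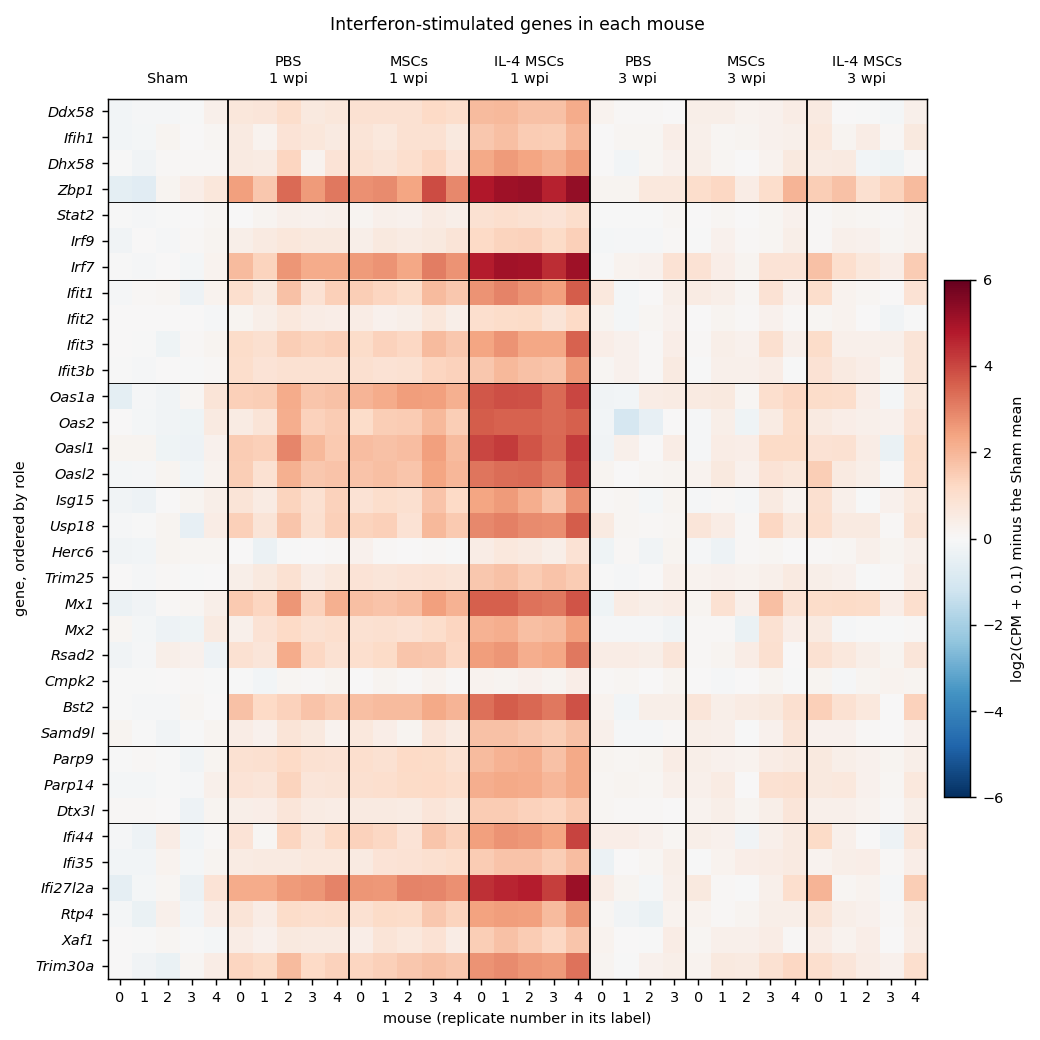
Heat map of the 34 interferon-stimulated genes (rows, ordered by role) in each of the 34 mice (columns, by group and replicate number), coloured by log2(CPM + 0.1) minus the Sham mean, from blue (lower) to red (higher). The 15 libraries of the injured groups at 1 wpi are red in nearly all rows and the 5 of IL-4 MSCs are darkest, whereas the 14 libraries at 3 wpi are close to Sham and the rows of Herc6 and Cmpk2 stay pale throughout.

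At 1 wpi nearly all of these genes were higher in injured mice than in Sham, and by far the most in mice given IL-4 MSCs. In PBS mice 32 of the 34 were called higher, against 8.73% of all genes tested, with a median log2 fold change of 0.94 against -0.0054 over all genes. In MSC mice 32 were called higher, against 10.9% of all genes, with a median of 1.16. In IL-4 MSC mice all 34 were called higher, against 18.4% of all genes, and the median was 2.41. The 3 comparisons share the sham mice. The lowest injured mouse was above the highest sham mouse for 28 genes in PBS mice, for 32 in MSC mice and for all 34 in IL-4 MSC mice, where 6.54%, 8.44% and 15.4% of all genes did so.

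Averaged over the 34 genes, the level of a mouse in log2(CPM + 0.1) relative to the Sham mean was between -0.101 and 0.229 in sham mice. It was between 0.728 and 1.41 in PBS mice, between 1.12 and 1.54 in MSC mice and between 2.18 and 2.80 in IL-4 MSC mice at 1 wpi. The PBS and MSC ranges overlapped, and the IL-4 MSC range stood above both. A few mice led their group in most genes. Replicate 4 of IL-4 MSCs at 1 wpi was the highest of its group in 28 of the 34 genes and replicate 3 the lowest in 29. Replicate 2 of PBS at 1 wpi was the highest in 27, and its neutrophil markers summed to 11.3 CPM against 2.05 to 3.55 CPM in the other PBS mice. Replicate 3 of MSCs at 1 wpi was the highest in 24 genes, with a neutrophil sum of 3.85 CPM. The highest neutrophil sum among MSC mice was that of replicate 2, at 13.7 CPM against 3.04 to 4.46 CPM in the others, and this mouse was the highest in 5 genes and the lowest in 9.

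**Figure D2:**
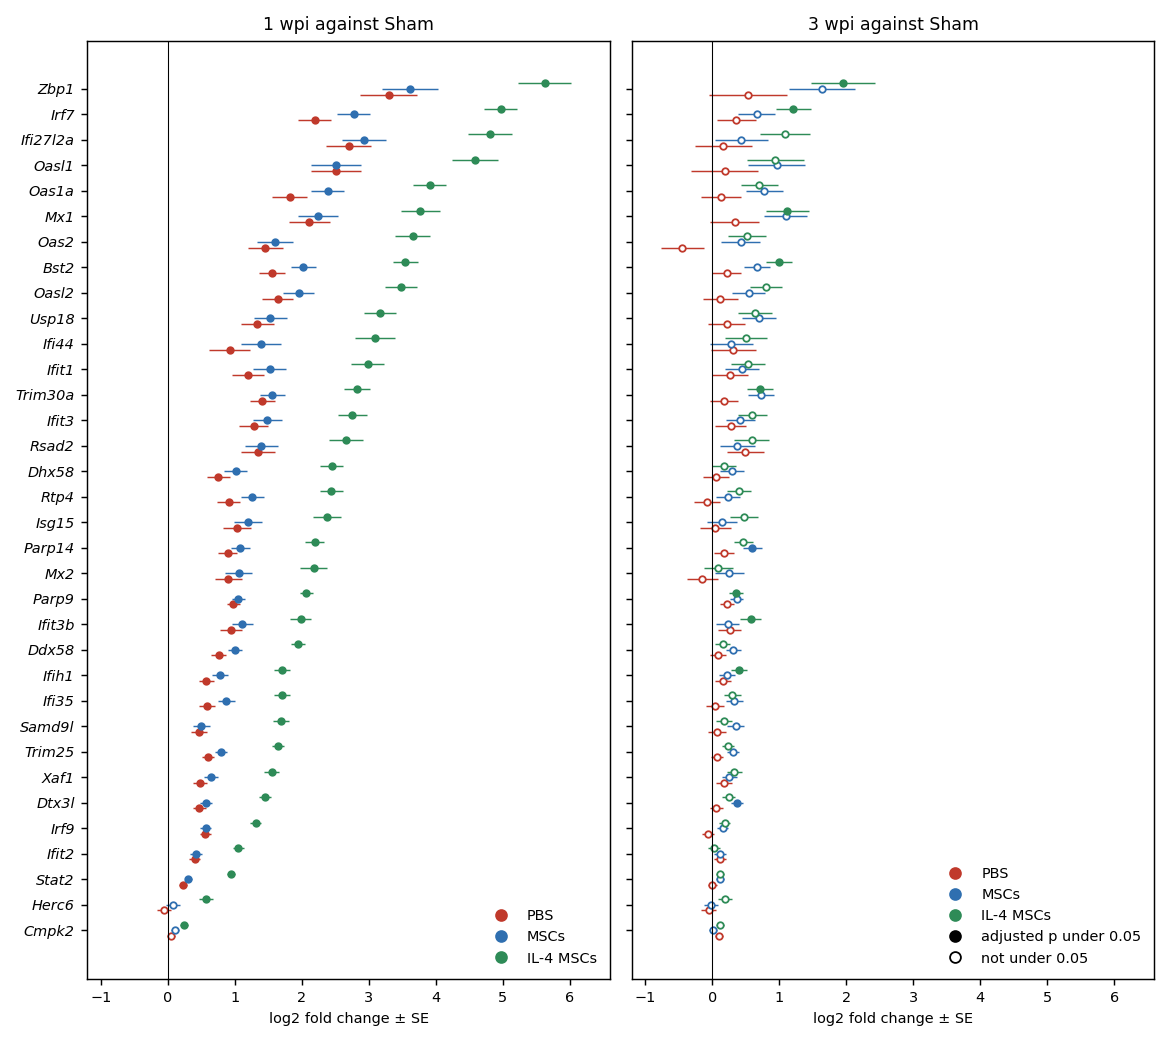
Log2 fold change ± SE of each gene against Sham at 1 wpi (left) and 3 wpi (right) for PBS (red), MSCs (blue) and IL-4 MSCs (green), with filled points where the adjusted p was under 0.05. At 1 wpi IL-4 MSCs lie to the right of the other groups for all 34 genes, from 0.24 for Cmpk2 to 5.63 for Zbp1, and at 3 wpi most points are open.

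The sensors detect viral nucleic acid in the cytosol. Ddx58, which encodes the RNA helicase RIG-I (chr4:40203773-40239828), had the highest mean level among them over all libraries. It stood at 4.41, 4.8, 4.76, 4.83 and 6.27 CPM in the 5 sham mice, at 8.08, 8.37, 10.4, 7.6 and 7.94 CPM in PBS mice, at 9.39, 9.62, 9.42, 11.5 and 10.4 CPM in MSC mice and at 18.9, 19.7, 17.3, 17.2 and 23.4 CPM in IL-4 MSC mice at 1 wpi. No PBS or MSC mouse was as low as a sham mouse and no IL-4 MSC mouse as low as any other. The log2 fold changes against Sham were 0.76 ± 0.11, 1.00 ± 0.11 and 1.95 ± 0.11 (adjusted p = 8.74e-06, 5.96e-08 and 5.81e-15). Its relative Ifih1, which encodes the long-RNA sensor MDA5, rose by 0.58 ± 0.12, 0.78 ± 0.12 and 1.71 ± 0.12 (adjusted p = 0.000674, 8.57e-06 and 2.35e-13). Dhx58, which encodes LGP2, a helicase that modulates the other sensors, rose from 1.44 ± 0.123 CPM in Sham to 2.43 ± 0.785, 2.89 ± 0.481 and 7.83 ± 0.969 CPM (SD).

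Zbp1, a sensor of Z-form nucleic acid that can start necroptosis, had the largest fold of all 34 genes in each injured group at 1 wpi. It was near or below the lowest detectable level in Sham, with 0.0573, 0.0492, 0.168, 0.216 and 0.278 CPM. Sham replicates 0 and 1 lay below the level of 3 counts in their libraries, 0.084 and 0.072 CPM, so the size of its folds over Sham is uncertain. PBS mice had 1.2, 0.625, 2.41, 1.29 and 1.99 CPM, MSC mice 1.5, 1.61, 1.12, 3.44 and 1.65 CPM and IL-4 MSC mice 6.5, 7.92, 8.38, 5.63 and 9.12 CPM. Each treated group lay wholly above Sham, and IL-4 MSC mice lay wholly above the rest. The log2 fold changes against Sham were 3.30 ± 0.42, 3.61 ± 0.42 and 5.63 ± 0.39 (adjusted p = 1.38e-06, 1.55e-07 and 4.87e-13).

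Among the genes of ISGF3 and its amplifier, Stat2 and Irf9 had small fold changes and Irf7 a large one. Stat2 (chr10:128270559-128292849) had 25.2, 25, 25.3, 26.9 and 27.8 CPM in Sham, 26.6, 29.1, 32.5, 31.6 and 32.3 CPM in PBS mice, 29, 32.1, 31, 36.1 and 33.1 CPM in MSC mice and 48.7, 52.6, 49.4, 45.3 and 53.7 CPM in IL-4 MSC mice at 1 wpi. The PBS range overlapped Sham, and the IL-4 MSC range lay above all others. Its log2 fold changes were 0.22 ± 0.059, 0.31 ± 0.059 and 0.94 ± 0.059 (adjusted p = 0.00895, 0.000256 and 4.31e-14). Irf9, the DNA-binding part of ISGF3, rose by 0.56 ± 0.082, 0.57 ± 0.082 and 1.31 ± 0.082 (adjusted p = 1e-05, 5.49e-06 and 4.31e-14).

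Irf7 encodes the factor that amplifies IFN-α transcription once interferon has been sensed. It lies at chr7:141262706-141266481 and had 1.32, 1.28, 1.34, 1.21 and 1.57 CPM in the 5 sham mice. Levels at 1 wpi were 5.26, 3.53, 8.96, 6.54 and 6.62 CPM in PBS mice, 8.43, 9.35, 7.13, 12.1 and 9.11 CPM in MSC mice and 37.2, 47.7, 45.4, 31 and 49.3 CPM in IL-4 MSC mice. The lowest IL-4 MSC mouse was more than 2-fold above the highest MSC mouse. The log2 fold changes were 2.19 ± 0.25, 2.77 ± 0.25 and 4.97 ± 0.25 (adjusted p = 2.19e-07, 3.25e-09 and 6.11e-16).

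The IFIT genes, a cluster on chromosome 19, encode proteins that bind viral RNA and hold back its translation. Ifit2, which had the highest mean level of the 4 over all libraries, had 12.8, 13, 12.8, 12.9 and 12.1 CPM in Sham. PBS mice had 14.4, 16.2, 19.5, 17.2 and 16.5 CPM, MSC mice 17.4, 15.1, 16, 20.4 and 16.4 CPM and IL-4 MSC mice 25.5, 27.2, 28, 22 and 29.4 CPM. Each group lay above Sham without overlap, by 0.40 ± 0.088, 0.42 ± 0.088 and 1.05 ± 0.087 in log2 (adjusted p = 0.00175, 0.000713 and 1.82e-11). The other IFIT genes rose more. Ifit1 rose by 1.20 ± 0.24 in PBS mice, 1.52 ± 0.24 in MSC mice and 2.98 ± 0.24 in IL-4 MSC mice. Ifit3 rose by 1.28 ± 0.21, 1.49 ± 0.21 and 2.76 ± 0.21, with 29.1, 37.3, 28.4, 28.6 and 66.7 CPM in the IL-4 MSC mice, of which replicate 4 was far above the others. Ifit3b rose by 0.95 ± 0.16, 1.11 ± 0.16 and 1.98 ± 0.16. Of the 31-base words in the transcripts of Ifit3, 61.8% also occur in Ifit3b, so reads of these copies may have been split between them and their separate levels are uncertain. For Ifit1 10.2% of the words occur in other genes, most of them in Ifit1bl2.

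The OAS genes on chromosome 5 encode oligoadenylate synthetases, which activate an RNA-degrading enzyme, and related proteins. Oasl2 (chr5:114896936-114912234) had 2.89, 2.95, 3.49, 2.81 and 3.67 CPM in Sham, 8.84, 5.99, 14.2, 10.02 and 10.5 CPM in PBS mice, 10.6, 11.1, 10.2, 16.8 and 12.6 CPM in MSC mice and 30.2, 33, 34, 27 and 52.4 CPM in IL-4 MSC mice at 1 wpi. PBS and MSC mice overlapped with each other but not with Sham, and IL-4 MSC mice were all higher. The log2 fold changes were 1.64 ± 0.23, 1.95 ± 0.23 and 3.48 ± 0.23 (adjusted p = 5.63e-06, 2.26e-07 and 2.07e-13). Oas1a rose by 1.82 ± 0.26, 2.39 ± 0.25 and 3.91 ± 0.25, but 68.1% of its 31-base words also occur in other genes, nearly all in Oas1g, and its own level is uncertain. Oas2 rose by 1.46 ± 0.27, 1.60 ± 0.27 and 3.65 ± 0.26. Oasl1, which represses Irf7 translation, rose by 2.52 ± 0.37, 2.52 ± 0.37 and 4.59 ± 0.34 from 0.145 ± 0.0441 CPM in Sham, the lowest mean of the 34 in CPM. Its sham mice had between 3 and 7 counts, near the lowest detectable level. As a group the OAS genes had a median log2 fold change of 3.78 in IL-4 MSC mice, against 2.41 over all 34.

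ISG15 is a ubiquitin-like protein that is joined to other proteins, and among the 4 genes of its system Herc6 had the smallest fold changes. Isg15 (chr4:156199424-156200818) rose from 2.12 ± 0.413 CPM in Sham to 4.35 ± 1.17, 4.88 ± 1.23 and 11 ± 2.85 CPM (SD) in PBS, MSC and IL-4 MSC mice at 1 wpi, by 1.04 ± 0.21, 1.20 ± 0.21 and 2.38 ± 0.21 in log2. Usp18, which removes ISG15 and damps receptor signalling, rose by 1.33 ± 0.25, 1.53 ± 0.24 and 3.16 ± 0.24. Trim25, a ubiquitin ligase that acts on RIG-I, rose by 0.60 ± 0.089, 0.80 ± 0.089 and 1.64 ± 0.089, with adjusted p of 2.29e-15 in IL-4 MSC mice. Herc6, the main ligase that attaches ISG15 in mice, had 12.6, 13.1, 16.6, 15.9 and 15.9 CPM in Sham, 14.8, 11.4, 14.4, 15 and 15.5 CPM in PBS mice, 17.7, 15.6, 14.8, 15.6 and 14.4 CPM in MSC mice and 19.9, 23.1, 21.3, 18.6 and 27.2 CPM in IL-4 MSC mice. PBS and MSC mice overlapped with Sham, with log2 differences of -0.06 ± 0.10 and 0.078 ± 0.10 that did not pass the test (adjusted p = 0.786 and 0.689). IL-4 MSC mice all lay above Sham, by 0.57 ± 0.10 (adjusted p = 3.94e-05).

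The antiviral effectors act on the virus or on the cell that carries it. Bst2, which encodes tetherin, a membrane protein that holds budding virions, had 2.29, 2.17, 2.21, 2.54 and 2.32 CPM in Sham. PBS mice had 7.89, 5.38, 6.14, 7.79 and 6.83 CPM, MSC mice 8.24, 8.71, 8.86, 11.4 and 9.67 CPM and IL-4 MSC mice 24, 29.3, 26.1, 21.2 and 34.2 CPM. These 4 groups did not overlap, in that order. Against Sham the log2 fold changes were 1.56 ± 0.19, 2.02 ± 0.19 and 3.55 ± 0.19 (adjusted p = 6.34e-07, 6.49e-09 and 2.11e-15). The dynamin-like GTPases rose too, Mx1 by 2.11 ± 0.30, 2.24 ± 0.30 and 3.77 ± 0.29 and Mx2 by 0.90 ± 0.20, 1.06 ± 0.20 and 2.18 ± 0.20. Laboratory strains of the C57BL/6 background are known to carry a defective Mx1 protein, which RNA levels do not show. Samd9l, a restriction factor that blocks translation, rose by 0.47 ± 0.13, 0.50 ± 0.13 and 1.69 ± 0.12, and against the sham mice of week 1 alone it did not pass the test in PBS and MSC mice (adjusted p = 0.117 and 0.0659).

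Rsad2 and Cmpk2 are neighbours on chromosome 12 that point away from each other (chr12:26442746-26456452 and chr12:26469204-26479837). Rsad2 encodes viperin, which makes a chain-terminating nucleotide, and Cmpk2 encodes a mitochondrial nucleotide kinase that supplies its substrate. Rsad2 rose by 1.34 ± 0.25, 1.40 ± 0.25 and 2.66 ± 0.25 in PBS, MSC and IL-4 MSC mice at 1 wpi (adjusted p = 0.000288, 0.000123 and 2.6e-10). Cmpk2 had 24.1, 23.7, 24.5, 25.7 and 23.6 CPM in Sham, 23.9, 21.6, 26.7, 25.8 and 27.3 CPM in PBS mice, 24.4, 27.5, 25.6, 28.4 and 25.3 CPM in MSC mice and 27.9, 27.2, 29, 27.2 and 31.9 CPM in IL-4 MSC mice. Its PBS and MSC differences of 0.041 ± 0.06 and 0.11 ± 0.06 did not pass the test (adjusted p = 0.737 and 0.227). In IL-4 MSC mice it rose by 0.24 ± 0.06 (adjusted p = 0.00203), the smallest fold of the 34.

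Parp9 and Dtx3l form a complex that marks chromatin and strengthens interferon signalling, and their genes lie head to head on chromosome 16 and overlap in the annotation (chr16:35938470-35972605 and chr16:35926511-35939151). Since the strand setting of the counting is not given in the sources used here, reads of the shared stretch cannot be placed on either gene with certainty, and 9.50% of the 31-base words of Parp9 occur in Dtx3l. Dtx3l had 8.94, 8.93, 8.59, 6.87 and 9.48 CPM in Sham, 10.9, 11.2, 14, 11.9 and 11.5 CPM in PBS mice, 12.4, 12.5, 11.8, 14.3 and 12.9 CPM in MSC mice and 24.9, 24.4, 22.1, 20.9 and 25.5 CPM in IL-4 MSC mice at 1 wpi. Parp9 had 3.75, 3.96, 3.66, 3.28 and 4.2 CPM in Sham, 7.2, 7.38, 8.64, 7.1 and 6.89 CPM in PBS mice, 7.55, 7.29, 8.65, 8.41 and 7.17 CPM in MSC mice and 14.1, 16.5, 17.1, 12.9 and 18.4 CPM in IL-4 MSC mice. Both genes separated Sham, the PBS and MSC mice together, and the IL-4 MSC mice without overlap. Parp9 had the smallest adjusted p of the 34 in PBS mice (0.98 ± 0.097, adjusted p = 3.02e-08) and in IL-4 MSC mice (2.07 ± 0.096, adjusted p = 1.38e-16). Dtx3l rose by 0.47 ± 0.09, 0.58 ± 0.09 and 1.46 ± 0.09. Parp14, an ADP-ribosyltransferase that also acts in IL-4 signalling through STAT6, rose by 0.90 ± 0.14, 1.08 ± 0.14 and 2.20 ± 0.14, with 24.9, 26.1, 25.2, 21.4 and 26.4 CPM in the IL-4 MSC mice.

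Of the remaining genes, Trim30a, which restrains inflammatory signalling through the TAB proteins, had the highest mean level over all libraries. It had 3.27, 2.68, 2.38, 3.5 and 4.35 CPM in Sham, 7.92, 7.09, 12.2, 7.38 and 8.53 CPM in PBS mice, 7.99, 8.77, 10.04, 10.8 and 10.1 CPM in MSC mice and 20.9, 23.5, 20.2, 19.3 and 30.7 CPM in IL-4 MSC mice at 1 wpi. The injured groups lay wholly above Sham and IL-4 MSC mice wholly above the rest, and 11.3% of its 31-base words occur in other genes, most of them in Trim30d. Ifi27l2a, a small mitochondrial protein of the ISG12 family, rose by 2.70 ± 0.34, 2.93 ± 0.33 and 4.80 ± 0.33. Rtp4, a receptor chaperone that also damps the response, rose by 0.91 ± 0.17, 1.26 ± 0.17 and 2.44 ± 0.17. Ifi35 rose by 0.58 ± 0.12, 0.87 ± 0.12 and 1.70 ± 0.12, and Xaf1, an antagonist of the apoptosis inhibitor XIAP, by 0.48 ± 0.11, 0.65 ± 0.11 and 1.55 ± 0.11. Ifi44 had 0.916, 0.763, 1.34, 0.835 and 0.988 CPM in Sham and 1.74, 1.03, 2.44, 1.67 and 2.32 CPM in PBS mice, whose ranges overlapped. Its rise of 0.92 ± 0.31 in PBS mice passed narrowly (adjusted p = 0.0424) and was lost without PBS replicate 0, 2, 3 or 4 at 1 wpi or sham replicate 0, 1, 3 or 4 (adjusted p from 0.0535 to 0.111). In MSC and IL-4 MSC mice Ifi44 rose by 1.39 ± 0.30 and 3.09 ± 0.30, with 5.78, 6.71, 6.2, 5.24 and 17.1 CPM in the IL-4 MSC mice, where replicate 4 stood apart.

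**Figure D3:**
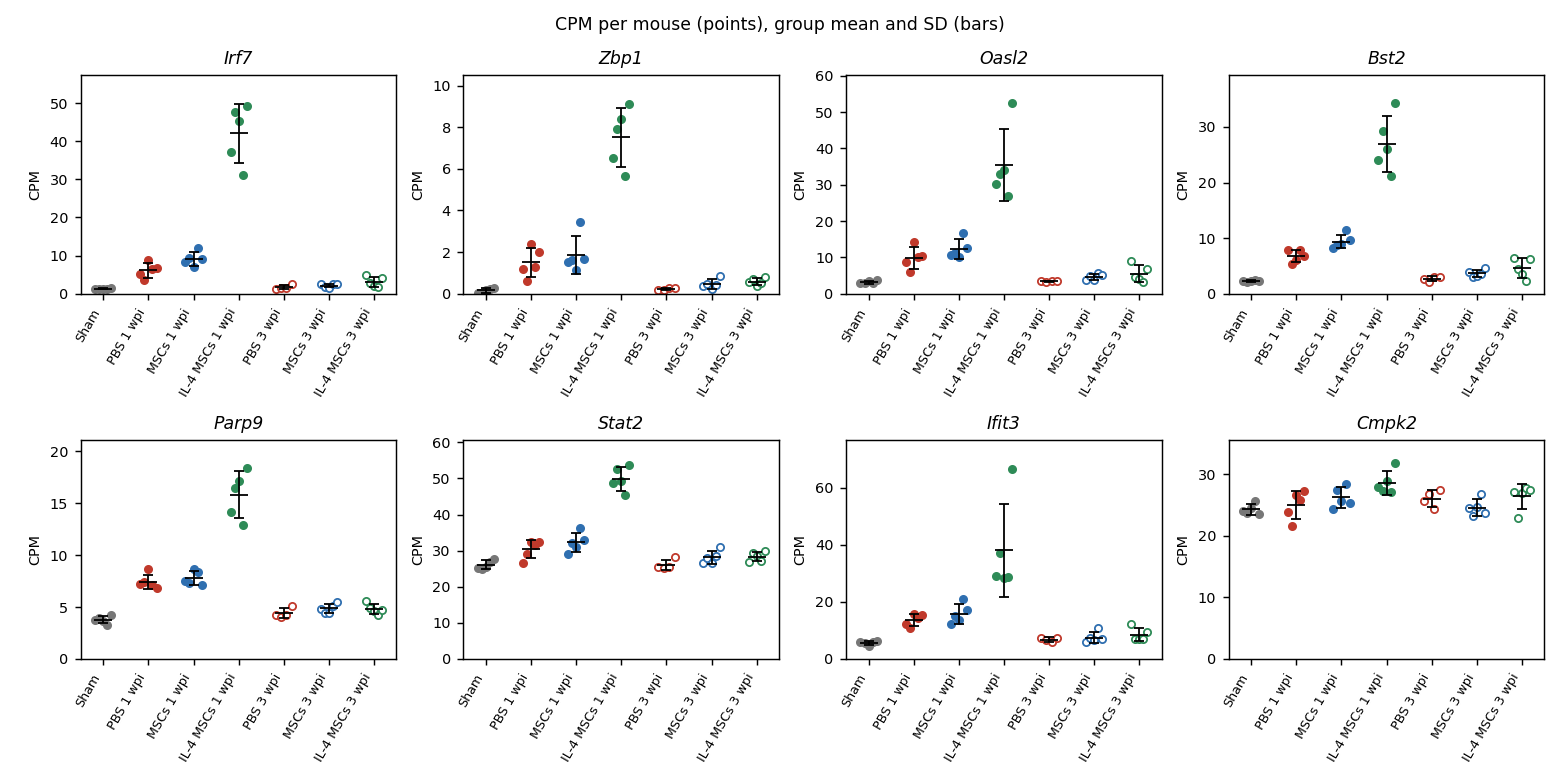
CPM of 8 of the genes in each mouse (points, filled for Sham and 1 wpi and open for 3 wpi), with the group mean ± SD (bars) and a linear axis from 0. Irf7, Zbp1, Oasl2, Bst2 and Parp9 in IL-4 MSC mice at 1 wpi lie above every other mouse, Ifit3 has 1 IL-4 MSC mouse at 66.7 CPM, and Cmpk2 lies between 21.6 and 31.9 CPM in all groups.

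The next comparison asked what the treatment added to the injury at 1 wpi. IL-4 MSC mice were higher than PBS mice in all 34 genes, against 11.2% of all genes tested, with a median log2 fold change of 1.33, and higher than MSC mice in 33, against 7.66% of all genes, with a median of 1.18. Every IL-4 MSC mouse was above every PBS mouse in 32 genes and above every MSC mouse in 32 genes, where 9.63% and 7.34% of all genes did so. The exceptions were Cmpk2 in both comparisons, Rsad2 against PBS and Isg15 against MSCs. Irf7 and Zbp1 had the largest folds over PBS, 2.78 ± 0.21 (adjusted p = 2.36e-11) and 2.33 ± 0.29 (adjusted p = 4.08e-07). Against MSC mice Irf7 was higher by 2.19 ± 0.20 and Parp9, which had the smallest adjusted p, by 1.02 ± 0.091 (adjusted p = 8.99e-10). The smallest folds over PBS were those of Herc6, 0.63 ± 0.10 (adjusted p = 2.86e-05), and Cmpk2, 0.20 ± 0.06 (adjusted p = 0.0213). The call of Cmpk2 was lost without PBS replicate 0 or 1 at 1 wpi (adjusted p from 0.0508 to 0.0575), and against MSC mice its difference of 0.13 ± 0.06 did not pass (adjusted p = 0.229).

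Between MSCs without the IL-4 message and PBS at 1 wpi no gene of the 34 passed the test. With edgeR, 0 of the 34 were called between MSC and PBS mice at 1 wpi, against 0.123% of all genes called higher. DESeq2 also called 0, 7 of the 34 (20.6%) had an unadjusted p under 0.05 against 4.52% of all genes, and the median log2 fold change was 0.17. Irf7 differed by 0.58 ± 0.21 (adjusted p = 0.925) and Bst2 by 0.46 ± 0.17 (adjusted p = 0.934), and Bst2 was the gene of the 34 whose MSC mice all lay above the PBS mice, where 0.496% of all genes did so.

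**Figure D4:**
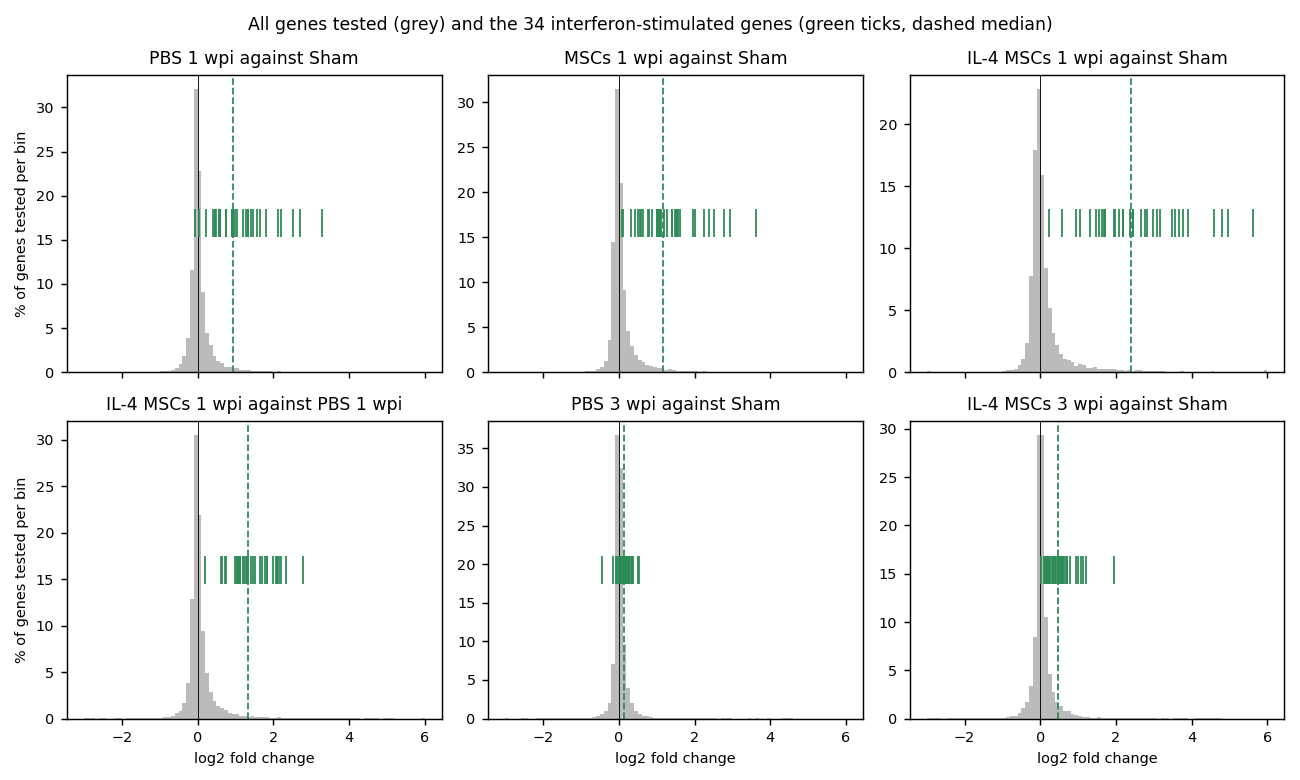
Distribution of log2 fold changes over the 17131 genes tested (grey, percent of genes per bin, with values beyond the axis counted in the outermost bin) and the 34 interferon-stimulated genes (green ticks, dashed line at their median) in 6 comparisons. The medians of the 34 genes are 0.94, 1.16 and 2.41 for PBS, MSCs and IL-4 MSCs against Sham at 1 wpi, 1.33 for IL-4 MSCs against PBS, and 0.15 and 0.47 for PBS and IL-4 MSCs against Sham at 3 wpi, while the grey peak stays at 0.

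By 3 wpi the levels had come most of the way back. In PBS mice edgeR called 0 of the 34 against Sham, where 0.0233% of all genes were called higher, DESeq2 called 0, 1 gene had an unadjusted p under 0.05 against 5.34% of all genes, and the median log2 fold change was 0.15. In MSC mice 2 genes were called higher, against 1.11% of all genes, with a median of 0.36, 17 had an unadjusted p under 0.05 against 11.0% of all genes, and DESeq2 called 7. In IL-4 MSC mice 8 were called higher, against 2.76% of all genes, with a median of 0.47, and 26 had an unadjusted p under 0.05 against 19.9% of all genes. The ranges of mice did not overlap with Sham for 2, 4 and 6 genes, where 1.21%, 1.66% and 2.01% of all genes lay higher without overlap. The 3 comparisons share the sham mice as well. Several of these calls were lost with 1 library left out, as given with each gene. The number called was between 0 and 5 for MSC mice, 0 without MSC replicate 4 or without any of sham replicates 0 to 3, 1 without MSC replicate 3, 4 without MSC replicate 0, and 5 without MSC replicate 2 or sham replicate 4. For IL-4 MSC mice it was between 2 and 12, 2 without IL-4 MSC replicate 4 or sham replicate 0 or 1, 3 without IL-4 MSC replicate 0 or sham replicate 2, 4 without sham replicate 3, and 12 without sham replicate 4.

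Bst2 and Irf7 had the smallest adjusted p of the 8 genes still higher after IL-4 MSCs, and their calls held with any 1 library left out. Bst2 had 6.44, 4.39, 3.58, 2.32 and 6.24 CPM in IL-4 MSC mice at 3 wpi, 3.88, 3.01, 3.27, 3.54 and 4.56 CPM in MSC mice and 2.67, 2.06, 2.96 and 2.97 CPM in PBS mice, against a highest sham mouse of 2.54 CPM. Replicate 3 of IL-4 MSCs lay within the Sham range and the other 4 above it. Its log2 fold change against Sham was 1.00 ± 0.19 (adjusted p = 0.00342). Irf7 had 4.8, 2.75, 2.15, 1.77 and 4.03 CPM in IL-4 MSC mice, all above the sham mice, a rise of 1.21 ± 0.26 (adjusted p = 0.00712). Genes that were not called but passed without 1 library were Oas1a, Oasl2, Ifi27l2a, Parp14 and Xaf1. In MSC and PBS mice Irf7 differed from Sham by 0.66 ± 0.27 and 0.36 ± 0.30, which did not pass.

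The other 6 calls in IL-4 MSC mice at 3 wpi were near the threshold and were each lost when any 1 of several libraries was left out. The estimate itself did not always shrink. That of Mx1 was 1.16 without sham replicate 3 and 1.02 without sham replicate 0, beside 1.12 with all libraries. Zbp1, with 0.565, 0.696, 0.358, 0.491 and 0.796 CPM, all above the sham mice, rose by 1.95 ± 0.47 (adjusted p = 0.0159) and lost its call without IL-4 MSC replicate 4 at 3 wpi or sham replicate 0 or 1 (adjusted p from 0.058 to 0.0661). Trim30a, with 6.52, 5.38, 4.33, 3.77 and 6.47 CPM, rose by 0.71 ± 0.19 (adjusted p = 0.0302), lost without IL-4 MSC replicate 0 or 4 at 3 wpi or sham replicate 0, 1 or 2 (adjusted p from 0.0689 to 0.118). Parp9, with 5.62, 4.9, 4.59, 4.29 and 4.75 CPM, rose by 0.36 ± 0.099 (adjusted p = 0.0349), lost without IL-4 MSC replicate 0 or 4 at 3 wpi or sham replicate 0, 1, 2 or 3 (adjusted p from 0.0698 to 0.117). The calls of the RNA sensor Ifih1, of Ifit3b and of Mx1 were of the same kind. Ifih1, with 8.44, 5.97, 7.32, 5.6 and 7.96 CPM against 4.78, 4.95, 5.91, 5.44 and 5.71 CPM in Sham, rose by 0.40 ± 0.12 (adjusted p = 0.0457), lost without IL-4 MSC replicate 0, 2 or 4 at 3 wpi or sham replicate 0, 1, 2 or 3 (adjusted p from 0.0557 to 0.166). Ifit3b, with 7.17, 5.72, 5.14, 4.31 and 6.79 CPM against 3.84, 3.79, 4.03, 3.87 and 4.11 CPM, rose by 0.57 ± 0.16 (adjusted p = 0.039), lost without IL-4 MSC replicate 0 or 4 at 3 wpi or sham replicate 0, 1, 2 or 3 (adjusted p from 0.0632 to 0.135). Mx1, with 0.932, 0.98, 0.943, 0.546 and 0.876 CPM against 0.286, 0.32, 0.403, 0.433 and 0.525 CPM, rose by 1.12 ± 0.32 (adjusted p = 0.0413), lost without IL-4 MSC replicate 0, 2 or 4 at 3 wpi or sham replicate 0, 1, 2 or 3 (adjusted p from 0.0569 to 0.12). With the striatum markers as a covariate 4 of the 34 genes were called in this comparison, against the 3 sham mice of week 3 alone Bst2 was the 1 gene called, and in a fit of the 2 groups alone 0 were called.

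In MSC mice at 3 wpi the genes called were Parp14 and Dtx3l. Parp14 had 6.73, 7.68, 5.53, 10.4 and 10.5 CPM against 4.93, 4.92, 5.37, 5.2 and 6.67 CPM in Sham, with ranges that overlapped, and rose by 0.60 ± 0.14 (adjusted p = 0.0305), lost without MSC replicate 3 or 4 at 3 wpi or sham replicate 0, 1, 2 or 3 (adjusted p from 0.0778 to 0.195). Dtx3l had 9.93, 11, 9.49, 11 and 14.1 CPM, with MSC replicate 4 the highest and all above the sham mice, and rose by 0.37 ± 0.091 (adjusted p = 0.0309), lost without MSC replicate 4 at 3 wpi or sham replicate 0, 1, 2 or 3 (adjusted p from 0.0626 to 0.228). Against the sham mice of week 3 alone neither passed (adjusted p = 0.222 and 0.0870). Mx1, Oas1a, Parp9 and Trim30a were not called but passed without 1 library.

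Between the treatments at 3 wpi 1 of the 34 genes passed the test. IL-4 MSC mice were called higher than PBS mice in Bst2 alone, against 2.17% of all genes, by 0.78 ± 0.20 (adjusted p = 0.03), with 11 genes at an unadjusted p under 0.05 against 16.9% of all genes, and this call was lost without IL-4 MSC replicate 0 or 4 at 3 wpi or PBS replicate 0, 1 or 2 at 3 wpi (adjusted p from 0.0569 to 0.134). Irf7, which differed by 0.85 ± 0.27 (adjusted p = 0.0799), passed without IL-4 MSC replicate 1 at 3 wpi or PBS replicate 3 at 3 wpi (adjusted p from 0.0421 to 0.0478). Against MSC mice edgeR and DESeq2 called 0 in IL-4 MSC mice, where 2.29% of all genes were called higher, and 3 genes had an unadjusted p under 0.05 against 17.9% of all genes. Between MSC and PBS mice edgeR and DESeq2 called 0, where 0.0817% of all genes were called higher, and 12 of the 34 (35.3%) had an unadjusted p under 0.05 against 5.73% of all genes.

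The fall from 1 wpi to 3 wpi was itself tested within each treatment. In PBS mice 27 of the 34 were lower at 3 wpi, against 4.89% of all genes, with a median log2 fold change of -0.80. In MSC mice 30 were lower, against 4.93% of all genes, with a median of -0.83. In IL-4 MSC mice 33 were lower, against 16.6% of all genes, with a median of -2.05. The genes not called were Ifit2, Herc6, Rsad2, Cmpk2, Samd9l, Ifi44 and Xaf1 in PBS mice and Herc6, Cmpk2, Samd9l and Dtx3l in MSC mice. The exception in IL-4 MSC mice was Cmpk2, with a difference of -0.11 ± 0.06 (adjusted p = 0.148). The highest mouse at 3 wpi lay below the lowest at 1 wpi for 23, 22 and 33 genes, where 5.75%, 3.79% and 13.9% of all genes did so.

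Parp9 had the smallest adjusted p in PBS and in IL-4 MSC mice, with log2 fold changes of -0.75 ± 0.10 (adjusted p = 1.26e-05) and -1.71 ± 0.094 (adjusted p = 1.17e-14). It had 4.22, 4.06, 4.24 and 5.15 CPM in PBS mice and, as given above, 4.29 to 5.62 CPM in IL-4 MSC mice at 3 wpi. Irf7 had the smallest in MSC mice, where it fell to 2.49, 1.8, 1.51, 2.42 and 2.44 CPM, a log2 fold change of -2.11 ± 0.23 (adjusted p = 3.28e-07). In PBS mice at 3 wpi Irf7 had 1.29, 1.54, 1.61 and 2.51 CPM. Each treatment ended below its own range at 1 wpi.

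Some of the smaller falls in PBS mice were near the threshold, and their calls changed with 1 library left out. That of Stat2, with 25.4, 25.3, 25.4 and 28.2 CPM at 3 wpi, was lost without PBS replicate 2, 3 or 4 at 1 wpi or PBS replicate 0, 1 or 2 at 3 wpi (adjusted p from 0.0653 to 0.0973). Ifih1 had 7.76, 6.18, 9.48, 8.67 and 7.92 CPM at 1 wpi and 5.46, 5.73, 5.71 and 7.06 CPM at 3 wpi, with ranges that overlapped, and its fall was lost without PBS replicate 2, 3 or 4 at 1 wpi or PBS replicate 0, 1 or 2 at 3 wpi (adjusted p from 0.0559 to 0.143). Dhx58 had 2.09, 2.07, 3.69, 1.67 and 2.61 CPM and then 1.43, 1.25, 1.57 and 1.72 CPM, and its fall was lost without PBS replicate 2 at 1 wpi or PBS replicate 0 or 1 at 3 wpi (adjusted p from 0.0675 to 0.106). Here the ranges overlapped in 1 pair of mice. Ifit1 had 4.79, 3.56, 8.1, 4.43 and 6.48 CPM and then 3.72, 2.19, 2.39 and 3.07 CPM, and its fall was lost without PBS replicate 2 or 4 at 1 wpi or PBS replicate 1 or 2 at 3 wpi (adjusted p from 0.0543 to 0.11). Ifi35, an interferon-induced leucine zipper protein, had 2.66, 2.72, 2.76, 2.98 and 2.9 CPM and then 1.43, 1.87, 2.02 and 2.41 CPM, and its fall was lost without PBS replicate 0 at 3 wpi (adjusted p = 0.0688), although its ranges did not overlap. The falls of Ifit2, Rsad2, Samd9l and Xaf1 did not pass but did so without PBS replicate 0 at 1 wpi or PBS replicate 3 at 3 wpi (adjusted p from 0.0287 to 0.0442), without PBS replicate 0, 1 or 4 at 1 wpi (adjusted p from 0.0296 to 0.0352), without PBS replicate 4 at 1 wpi or PBS replicate 0 at 3 wpi (adjusted p from 0.0436 to 0.0459) and without PBS replicate 3 at 3 wpi (adjusted p = 0.0309).

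The same held for part of the falls in MSC mice. Stat2, with 26.5, 27.9, 26.6, 28.5 and 31.1 CPM at 3 wpi, lost its call without MSC replicate 1, 2, 3 or 4 at 1 wpi or MSC replicate 0, 1 or 2 at 3 wpi (adjusted p from 0.0524 to 0.116), and Ifit2, with 12.8, 14.1, 13.3, 15.4 and 13.3 CPM, without MSC replicate 0 or 3 at 1 wpi or MSC replicate 0 or 2 at 3 wpi (adjusted p from 0.0632 to 0.109). Parp14, with 10.7, 10.9, 12.2, 12.3 and 11.2 CPM at 1 wpi and the values given above at 3 wpi, lost it without MSC replicate 2 or 3 at 1 wpi or MSC replicate 0, 1 or 2 at 3 wpi (adjusted p from 0.0631 to 0.115). In Stat2, Ifit2 and Xaf1 the highest mice at 3 wpi were within the range of 1 wpi. Xaf1 had 7.28, 9.44, 8.41, 10 and 7.49 CPM and then 5.89, 6.65, 6.79, 7.48 and 5.67 CPM, and its call was lost without MSC replicate 1 or 3 at 1 wpi or MSC replicate 0 at 3 wpi (adjusted p from 0.052 to 0.0738). Usp18 had 2.52, 2.64, 1.74, 3.85 and 2.96 CPM and then 1.58, 1.29, 0.975, 2.32 and 1.49 CPM, lost without MSC replicate 3 at 1 wpi or MSC replicate 1 or 2 at 3 wpi (adjusted p from 0.0648 to 0.09). Ifi44 had 2.63, 2.4, 1.76, 3.19 and 2.68 CPM and then 1.23, 1.18, 0.817, 1.19 and 1.43 CPM, lost without MSC replicate 3 at 1 wpi or MSC replicate 2 at 3 wpi (adjusted p from 0.0513 to 0.0652), with no overlap between the weeks. The fall of Dtx3l passed without MSC replicate 4 at 3 wpi (adjusted p = 0.0129).

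Whether the treatment's effect differed between the weeks was tested as an interaction. The difference between IL-4 MSC and PBS mice was larger at 1 wpi than at 3 wpi in 24 of the 34 genes, against 3.93% of all genes, with a median of 1.02 in log2. The difference between IL-4 MSC and MSC mice was larger in 28, against 5.97% of all genes, with a median of 1.15. The smallest adjusted p was that of Ddx58 against PBS (1.12 ± 0.16, adjusted p = 2.66e-05) and that of Dtx3l against MSCs (1.01 ± 0.13, adjusted p = 2.26e-06). The 10 genes not called against PBS were Zbp1, Ifit3b, Oas2, Oasl1, Isg15, Herc6, Mx1, Cmpk2, Ifi27l2a and Trim30a, and the 6 not called against MSCs were Ifit3b, Isg15, Herc6, Rsad2, Cmpk2 and Ifi27l2a.

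Several interactions were near the threshold, and their calls changed with 1 library left out. That of Mx2 against PBS was 1.03 ± 0.29 and was lost without IL-4 MSC replicate 1 or 4 at 1 wpi or IL-4 MSC replicate 3 at 3 wpi or PBS replicate 0 at 1 wpi or PBS replicate 0 or 2 at 3 wpi (adjusted p from 0.0511 to 0.0755). For Mx2 the mice had 4.54, 4.77, 3.67, 3.98 and 5.87 CPM after IL-4 MSCs and 1.24, 1.85, 2.35, 1.95 and 2.05 CPM after PBS at 1 wpi, then 1.47, 0.917, 0.976, 0.955 and 1.03 CPM and 0.937, 0.917, 0.94 and 0.825 CPM at 3 wpi. The groups were apart at 1 wpi and overlapped at 3 wpi. That of Rsad2 was 1.22 ± 0.35 and was lost without IL-4 MSC replicate 1 or 4 at 1 wpi or IL-4 MSC replicate 2 or 3 at 3 wpi or PBS replicate 0, 1, 3 or 4 at 1 wpi or PBS replicate 2 or 3 at 3 wpi (adjusted p from 0.0522 to 0.0851). Rsad2 had 9.73, 10.7, 7.65, 8.36 and 15.1 CPM and 3.14, 2.72, 7.94, 3.93 and 3.11 CPM at 1 wpi, then 3.08, 2.56, 2.08, 1.83 and 2.71 CPM and 2.2, 2.19, 2.1 and 2.74 CPM, and replicate 2 of PBS at 1 wpi reached into the IL-4 MSC range. That of Oasl2 was 1.16 ± 0.33 and was lost without IL-4 MSC replicate 4 at 1 wpi or IL-4 MSC replicate 2 or 3 at 3 wpi or PBS replicate 0 at 1 wpi or PBS replicate 2 at 3 wpi (adjusted p from 0.0525 to 0.0731), with 8.86, 4.58, 4.07, 3.08 and 6.74 CPM and 3.5, 3.21, 3.42 and 3.56 CPM at 3 wpi, where only replicate 3 of IL-4 MSCs was below the PBS mice. Against MSCs the interaction of Ifi44 (1.48 ± 0.41) was lost without IL-4 MSC replicate 3 at 3 wpi (adjusted p = 0.0513) and that of Zbp1 (1.70 ± 0.49) without IL-4 MSC replicate 3 at 3 wpi or MSC replicate 4 at 3 wpi (adjusted p from 0.0516 to 0.121), with 0.388, 0.459, 0.22, 0.397 and 0.86 CPM for Zbp1 in MSC mice and 2.2, 1.2, 0.976, 0.764 and 1.65 CPM for Ifi44 in IL-4 MSC mice at 3 wpi. Ifi27l2a, Ifit3b, Isg15, Oas2, Oasl1 and Trim30a against PBS, and Ifi27l2a, Isg15 and Rsad2 against MSCs, were not called but passed without 1 library. The difference between MSC and PBS mice had 0 interactions with edgeR and with DESeq2, among the 34 and among all genes with edgeR, and 0 of the 34 at an unadjusted p under 0.05, where 3.33% of all genes had one.

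The interferons that could drive these genes were barely detected. Of 21 interferon genes listed 16 were in the table under those names and 0 passed the filter on low counts. Ifnb1, the single IFN-β gene, had at most 2 counts in a library and 0 counts in 31 of the 34 libraries. Ifna5, Ifna6 and Ifna15 had 0 counts in every library, which allows up to 3 counts or 0.0722 to 0.101 CPM in each. Ifnz reached 10 counts and Ifna16 reached 4, and no other interferon gene had more than 3 counts in a library. Ifng, the IFN-γ gene, had at most 3. At this depth no difference between groups was detectable in the ligands, and messages made earlier or elsewhere are not measured by these libraries.

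The receptors and their kinases had a median log2 fold change of 0.14 between IL-4 MSC and PBS mice at 1 wpi, beside 1.33 for the 34 genes, a difference that was not tested. In IL-4 MSC mice at 1 wpi 5 of 8 were called higher than Sham, and 4 of 8 higher than PBS, against 18.4% and 11.2% of all genes. Ifnar2 rose by 0.53 ± 0.066 over PBS (adjusted p = 4.15e-07) and Ifnar1 by 0.17 ± 0.035 (adjusted p = 0.000596). Jak2, a kinase of the IFN-γ receptor, rose by 0.47 ± 0.065 and Ifngr1, a chain of that receptor, by 0.66 ± 0.11. Ifngr2 and Ifnlr1 differed by 0.053 ± 0.059 and -0.036 ± 0.19, which did not pass.

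Genes that induce interferon were called higher than PBS in 6 of 13 and genes that restrain the pathway in 6 of 10, against 11.2% of all genes. The other call among the restraints was Pias1, a SUMO ligase, which was lower by a log2 fold change of -0.11 ± 0.032 and is named after its value was seen. Tlr9, an endosomal DNA receptor, rose by 1.08 ± 0.11, the transcription factor Irf5 by 0.96 ± 0.14 and the adaptor Myd88 by 0.63 ± 0.11. Among the restraints Samhd1, a nucleotide hydrolase, rose by 0.64 ± 0.066, Nlrc5 by 1.94 ± 0.22 and Socs1, which blocks the receptor's kinases, by 1.61 ± 0.20 (adjusted p = 3.09e-07). Nlrc5 is also known as an activator of MHC class I genes. Socs1 did not pass the test in PBS mice against Sham, with -0.12 ± 0.21 (adjusted p = 0.78).

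Other interferon targets, outside the 34, moved in the same direction. Of 40 further interferon-stimulated genes 29 were higher than Sham in PBS mice, 32 in MSC mice and 39 in IL-4 MSC mice at 1 wpi, against 8.73%, 10.9% and 18.4% of all genes, with medians of 0.65, 0.86 and 1.48 in log2. IL-4 MSC mice were above PBS mice in 37 of the 40, against 11.2% of all genes, with a median of 1.08, lower than the 1.33 of the 34, a difference that was not tested. Sp100, a nuclear body protein, rose over PBS by 1.09 ± 0.097 (adjusted p = 5.04e-10) and the large ubiquitin ligase gene Rnf213 by 1.21 ± 0.11. Irf1 rose by 0.79 ± 0.097. All 13 genes of a list that prefers IFN-γ were higher too in IL-4 MSC mice than in PBS mice, where the share of all genes is the same 11.2%, with a median of 1.40, among them Irgm2 (1.37 ± 0.12), Tap1 (1.75 ± 0.16) and Igtp (1.60 ± 0.15), which encode 2 immunity-related GTPases and a peptide transporter. At 3 wpi 11 of these 13 were above Sham in IL-4 MSC mice and 8 in MSC mice, against 2.76% and 1.11% of all genes. The corresponding counts for the 34 genes were 8 and 2, and the difference between the lists was not tested. Alternative fits are reported here for the 34 genes only.

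Markers of some other cell types changed in the same comparisons as the 34 genes. The shares of all genes called higher than Sham at 1 wpi were 8.73% in PBS, 10.9% in MSC and 18.4% in IL-4 MSC mice, and 11.2% were called higher in IL-4 MSC than in PBS mice. At 1 wpi 9 of 10 microglia markers were called higher than Sham in each injured group, and their sum was 313 to 411 CPM in Sham, 505 to 635 CPM in PBS mice, 541 to 608 CPM in MSC mice and 567 to 698 CPM in IL-4 MSC mice. Between IL-4 MSC and PBS mice 3 of the 10 were called higher, with a median log2 fold change of 0.060 beside 1.33 for the 34 genes. Of 10 markers of infiltrating myeloid cells 4, 6 and 9 were called higher than Sham in PBS, MSC and IL-4 MSC mice, and their sum was 44.6 to 80.9 CPM in Sham, 90.3 to 132 CPM, 95.9 to 129 CPM and 264 to 376 CPM. Over PBS mice 8 of the 10 were called higher in IL-4 MSC mice, with a median of 2.49. The list includes Mrc1 and Cd163, which the paper counts as M2-like genes. At this time point its PCR assays found both raised in no group other than IL-4 MSCs. More such cells and a change of their state therefore cannot be told apart by this list. The monocyte marker Ly6c2 had 0 counts in 1 library only, and no marker of this list was at 0 throughout. Within IL-4 MSC mice at 1 wpi the sum ran from 264 CPM in replicate 4, the highest mouse for the 34 genes, to 376 CPM in replicate 0.

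The other lists did not all follow the 34 genes. The neutrophil sum was 0.619 to 2.89 CPM in Sham, 2.05 to 11.3 CPM in PBS mice, 3.04 to 13.7 CPM in MSC mice and 4.21 to 8.42 CPM in IL-4 MSC mice. Of its 8 markers 5 passed the filter on low counts, 1 of them was called higher than PBS in IL-4 MSC mice, and the defining gene Ly6g had at most 2 counts in a library. Of 8 endothelial markers 0 were called higher than Sham in PBS and in MSC mice at 1 wpi, where 32 of the 34 genes rose, and 5 in IL-4 MSC mice. Over PBS 7 of the 8 were called higher in IL-4 MSC mice, with sums of 238 to 267 CPM in PBS mice and 320 to 397 CPM in IL-4 MSC mice. Plasmacytoid dendritic cells are the strongest makers of type I interferon. Of 8 genes listed as their markers Klk1 and Dntt did not pass the filter on low counts. In IL-4 MSC mice 1 of the other 6 was called higher than PBS, against 11.2% of all genes. The list shares Siglech with the microglia list. It summed to 446 to 479 CPM in Sham and 395 to 422 CPM in IL-4 MSC mice at 1 wpi, so it does not single out these cells.

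Of 8 T cell markers 0 were called higher than Sham in PBS mice, 1 in MSC mice and 5 in IL-4 MSC mice at 1 wpi. At 3 wpi 6 of 8 were called higher in IL-4 MSC mice and 5 in MSC mice, against 2.76% and 1.11% of all genes. The sums were 3.84 to 8.82 CPM in Sham and 9.77 to 24.8 CPM in IL-4 MSC mice. Of these IL-4 MSC mice replicate 1 had the lowest sum and the lowest mean log2 CPM of the striatum markers, 4.19. Replicate 3 had the highest of both, with 6.90 for the striatum markers. The sham mice of week 1, lower in striatum markers as given above, had sums of 4.50 and 3.84 CPM. Those of week 3 had 8.49, 8.82 and 8.80 CPM. In each injured group at 1 wpi the mouse with the highest sum also had the highest striatum level. For MSC mice this was replicate 2, with 9.96 CPM and 5.34. The same held in PBS mice at 3 wpi. In MSC mice at 3 wpi, by contrast, the highest sum, 11.6 CPM, was in replicate 4, which had the lowest striatum level, 3.37. Whether the sums follow the region sampled was not tested. In MSC mice 4 of the 8 were higher at 3 wpi than at 1 wpi, against 1.22% of all genes, while 30 of the 34 genes were lower. Of 8 astrocyte markers 5, 5 and 6 were called higher than Sham in PBS, MSC and IL-4 MSC mice at 1 wpi, and 0 higher than PBS in IL-4 MSC mice. In IL-4 MSC mice 1 astrocyte marker was called lower than Sham, against 18.5% of all genes, and 1 lower than PBS. Of 8 neuron markers 4, 4 and 6 were called lower than Sham, against 5.03%, 6.90% and 18.5% of all genes, and 2 lower than PBS in IL-4 MSC mice. Of 8 oligodendrocyte markers 1 was called higher than Sham in each injured group, 1 lower than Sham in IL-4 MSC mice and 0 higher than PBS. Of 8 genes listed as markers of MSCs 4 were called higher in IL-4 MSC mice than in PBS mice, against 11.2% of all genes. Against MSC mice 4 were called higher too, where 7.66% of all genes were, and 0 differed between MSC and PBS mice. Sham mice received no cells and still expressed these genes, so the list does not single out the injected cells. It includes Eng, the gene of CD105, which the paper reports as absent from its MSCs. The sum of the MSC markers was 714 to 735 CPM in Sham, 677 to 763 CPM in PBS mice, 721 to 759 CPM in MSC mice and 761 to 822 CPM in IL-4 MSC mice at 1 wpi. The part of any of these cell types, or of the injected cells, in the levels of the 34 genes was not tested.

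**Figure D5:**
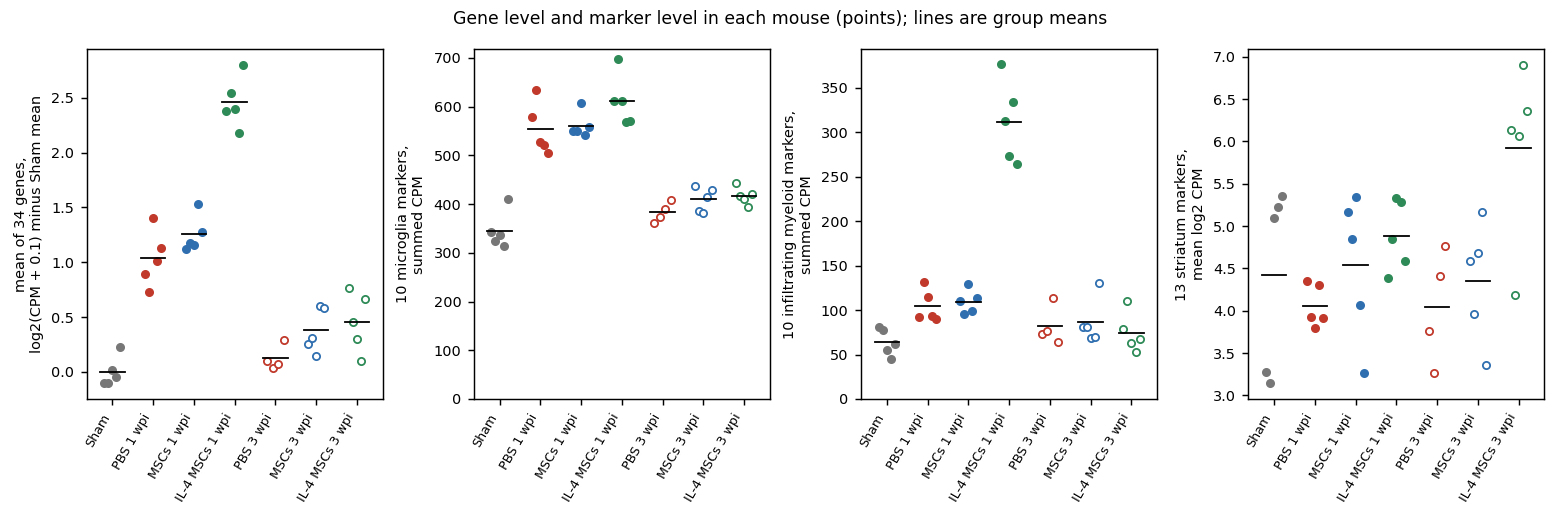
Mean log2(CPM + 0.1) of the 34 genes minus the Sham mean, summed CPM of 10 microglia and 10 infiltrating myeloid markers, and mean log2 CPM of 13 striatum markers, in each mouse (points, open at 3 wpi) with group means (lines). The 34 genes and the infiltrating myeloid sum are highest in IL-4 MSC mice at 1 wpi, at 264 to 376 CPM for the latter, the microglia sum is raised in all 3 injured groups at 1 wpi, and 4 of the 5 IL-4 MSC mice at 3 wpi stand highest in striatum markers.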

How the data were processed

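RNA from each mouse was sequenced as 1 library with reads of 50 bp. The authors trimmed the reads with cutadapt 2.4 and used kallisto 0.46 against the protein-coding transcripts of GENCODE M23 to make estimated counts and TPM per gene, both of which were deposited in 1 table of 21203 genes, where kallisto splits reads between similar transcripts. A further 63 deposited columns hold the authors' own 21 comparisons from sleuth and were not used. The 34 genes and the other lists were chosen with earlier results of these data known.

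Estimated counts were rounded and fitted with edgeR 4.0.16 (quasi-likelihood test, TMM scaling, filterByExpr, all 34 libraries in 1 fit) in R 4.3.3. P-values were adjusted by Benjamini and Hochberg over the 17131 genes tested, two-sided, with a threshold of 0.05. Each treated group was compared with Sham, with the other treatments of its week and with its own earlier week (15 comparisons), and 3 interactions of treatment and week were tested. The filter kept all 34 genes. Means are given with the SD over mice and fold changes with the SE of the fit, and depths limit precision as stated for the floor of 3 counts, which covers counting error only. Deposited TPM was used only to compare levels between genes. Gene positions are from GENCODE M21 (GRCm38). The test was checked on simulated counts that had the same spread between mice for every gene and no regional differences. That check does not cover the regional differences between these libraries. DESeq2 1.42.0, other scaling, no filter, the replicate number as a block, a fold threshold, a striatum covariate, smaller fits, sham mice of 1 week and each library left out were tried as alternatives.

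Values per mouse are given for the genes with the highest mean level in their role group or the smallest adjusted p in a comparison. They are also given for those whose call was lost with 1 library left out. Zbp1, Irf7 and Bst2 enter this way, and other genes of the pathway are named where they encode a ligand or receptor, were singled out by the rule (Irf1 and 1 other, which is not reported here), or have one of the 3 smallest adjusted p of their list between IL-4 MSC and PBS mice at 1 wpi. Replicate numbers were checked for pairing: deviations from the group means correlated between -0.299 and 0.411 over 99 same-numbered pairs of mice (median 0.0227, against -0.0015 for other pairs), and 30 of the 99 were over 0.1, so the numbers were not taken to pair the mice.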

Additional observations from a re-analysis of the deposited data

Results flagged for a closer look

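The effect of IL-4 MSCs differed between the weeks by a test of the difference itself (edgeR interaction, adjusted p under 0.05), each time larger at 1 wpi. Set against PBS this held in 24 of the 34 genes, against 3.93% of all genes. Set against MSCs it held in 28, against 5.97% of all genes.

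In 26 of 238 combinations of gene and group 1 mouse stood apart from the others of its group by Dixon's criterion on CPM, a criterion that chance meets in about 1 group in 20. The mice recur. In IL-4 MSCs at 1 wpi replicate 4 stood highest with 66.73 CPM for Ifit3, 24.39 for Ifit3b, 52.35 for Oasl2, 12.49 for Usp18 and 17.1 for Ifi44. In PBS at 1 wpi replicate 2 stood highest with 10.38 CPM for Ddx58, 1.735 for Oasl1, 7.936 for Rsad2, 8.643 for Parp9, 13.85 for Parp14 and 12.21 for Trim30a, and replicate 1 stood lowest for Herc6 with 11.39 CPM. In MSCs at 1 wpi replicate 3 stood highest with 3.439 CPM for Zbp1 and 1.21 for Oasl1.

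Among sham mice replicate 4 stood highest with 6.268 CPM for Ddx58, 1.235 for Oas2 and 6.67 for Parp14, and lowest with 12.13 CPM for Ifit2. Its microglia markers summed to 411 CPM against 313 to 344 CPM in the other sham mice. In PBS at 3 wpi replicate 3 stood highest with 28.22 CPM for Stat2, 2.739 for Rsad2 and 5.149 for Parp9, and replicate 0 with 1.378 CPM for Usp18. In MSCs at 3 wpi replicate 3 had 10.83 CPM for Ifit3. In IL-4 MSCs at 3 wpi replicate 0 stood highest for Mx2 with 1.468 CPM, replicate 3 lowest for Mx1 with 0.5459 CPM and replicate 1 lowest for Cmpk2 with 22.86 CPM.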

How the results depend on the processing

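At 1 wpi the number of the 34 genes called kept within 1.5 times of the reported number under DESeq2, RLE scaling, no filter, the block, the striatum covariate, fits of the 2 groups alone and the sham mice of the same week. With a log2 fold change of at least 1 required as well, 15 were called for PBS against Sham. At 3 wpi the numbers were less stable, and the cause was not tested. Shares of all genes called under these alternative settings are not reported here. Whether a shift was particular to the 34 genes was therefore not tested. MSCs against Sham gave 7 with DESeq2, 0 with the fold threshold, 1 in the fit of 2 groups, 0 with the sham mice of week 3 and 0 to 5 with a library left out. IL-4 MSCs against Sham gave 3 with the fold threshold, 4 with the striatum covariate, 0 in the fit of 2 groups, 1 with the sham mice of week 3 and 2 to 12 with a library left out. IL-4 MSCs against PBS gave 4 with DESeq2, 0 with the fold threshold, 0 with the covariate, 0 in the fit of 2 groups and 0 to 2 with a library left out. The fold threshold gave 13 for week 3 against week 1 in PBS mice, 15 in MSC mice and 15 for the interaction of IL-4 MSCs with PBS. With the replicate number as a block, 2 genes in place of 1 were called for IL-4 MSCs against PBS at 3 wpi, and of the single genes 317 of 318 calls were kept. The direction was reversed for Herc6 between PBS mice at 1 wpi and Sham, a difference that did not pass the test, with 0.144 against the sham mice of week 1 and from -0.107 to 0.012 in log2 with a library left out, and for no other printed value. Depth limits the interferon ligands, of which 0 passed the filter on low counts.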
